A study of Homo sapiens with 40 samples.

Results

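A set of 10 genes of glucose production were followed in HepaRG cells exposed to PCB 126, glyphosate or Roundup. They were chosen by name: pyruvate carboxylase (PC), the cytosolic and mitochondrial phosphoenolpyruvate carboxykinases (PCK1, PCK2), fructose bisphosphatase (FBP1), the catalytic subunit of glucose 6-phosphatase (G6PC), the glucose 6-phosphate transporter (SLC37A4), the glucose transporter of hepatocytes (SLC2A2, also GLUT2), tyrosine aminotransferase (TAT), the coactivator PGC-1α (PPARGC1A) and the transcription factor FOXO1. All 10 were found among the 56568 gene names of the transcript tables. The study sequenced RNA of HepaRG, an established human hepatic cell line that differentiates into hepatocyte-like colonies surrounded by biliary-like cells. All cultures were commercially supplied differentiated cells, exposed from day 8 to day 14 in a medium with fetal bovine serum and DMSO, and 8 groups of 5 libraries were made. The control group received the solvent alone. PCB 126, a polychlorinated biphenyl with dioxin-like action and a ligand of the aryl hydrocarbon receptor (AhR), was given at 100 pM, 10 nM and 1 µM. The herbicide glyphosate was used at a low (10 µg/L), a middle (1 mg/L) and a high (0.1 g/L) concentration. Roundup (Grand Travaux +), a formulated glyphosate product, was used at 10 µg/L. The same 5 control libraries served every comparison with control, so those differences are not independent of each other. The labels do not say whether the 5 libraries of a group came from separate cultures, and p-values therefore measure the spread between these libraries.

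Gluconeogenesis makes glucose from lactate, amino acids and glycerol, and in the body it is a task of hepatocytes and kidney tubules during fasting. PC and the carboxykinases turn pyruvate into phosphoenolpyruvate, FBP1 removes a phosphate from fructose bisphosphate, SLC37A4 brings glucose 6-phosphate into the endoplasmic reticulum where G6PC releases glucose, and SLC2A2 carries glucose across the cell membrane. TAT starts the breakdown of tyrosine and is induced by glucocorticoids and cyclic AMP. PPARGC1A is induced through the cyclic AMP pathway and coactivates FOXO1 and HNF4A at gluconeogenic promoters.

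Promoter windows are shown for PPARGC1A and SLC2A2, since the RNA of both loci was lower at the highest PCB 126 dose. Both genes are on the minus strand of GRCh38, and the windows are written 5′ to 3′. The PPARGC1A window, chr4:23890078-23890327, is the 250 bases before the start of the transcript ENST00000264867, the most abundant one of the gene in these libraries, and was read from the genome. It overlaps 1 exon of another PPARGC1A transcript, for which no coding sequence is defined. The SLC2A2 window, chr3:171026744-171026970, is 227 bases of the promoter entry of the RefSeq table (GRCh38). Its last bases reach into the locus as the deposited tables place it. Capitals mark the cyclic AMP response element TGACGTCA.

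PPARGC1A: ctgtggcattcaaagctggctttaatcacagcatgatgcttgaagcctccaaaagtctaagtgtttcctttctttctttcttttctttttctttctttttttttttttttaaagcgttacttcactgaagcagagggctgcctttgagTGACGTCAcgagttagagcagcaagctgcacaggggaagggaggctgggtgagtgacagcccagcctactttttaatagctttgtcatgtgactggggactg

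SLC2A2: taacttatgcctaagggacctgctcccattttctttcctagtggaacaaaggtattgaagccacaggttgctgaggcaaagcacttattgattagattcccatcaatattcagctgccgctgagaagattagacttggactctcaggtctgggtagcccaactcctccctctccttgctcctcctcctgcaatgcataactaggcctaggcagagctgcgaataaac

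The element stood in the PPARGC1A window 102 bases before the transcript start. A search on both strands of 300-base windows found TGACGTCA in 1.85% of the 35116 promoters in the RefSeq table. Of the 10 members, 8 had entries there, with 12 windows in all, and PCK1 and TAT had none. None of the 12 windows held TGACGTCA. The AhR core GCGTG was found in 3 of the 12 windows, those of FBP1 and SLC37A4 and an upstream alternative start of PPARGC1A, and in 36.5% of all promoters. The FOXO motif GTAAACA was in none of the 12 and in 3.42% of all promoters. Neither window printed here held GCGTG or GTAAACA. These are matches of letters, and no binding was measured.

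Levels are given as FPKM (fragment counts divided by transcript length and by sequencing yield), a measure that allows genes to be set beside each other. In the control libraries PC and PCK2 were the most abundant members, at 13.6 ± 4.28 and 13.3 ± 3.80 FPKM (SD, n = 5). Among sums over transcripts that carry the gene name, SLC37A4 followed at 6.51 ± 3.32, PPARGC1A at 6.50 ± 2.36, FOXO1 at 5.13 ± 2.00, SLC2A2 at 3.45 ± 5.06 and G6PC at 2.98 ± 1.00 FPKM. The ranges of neighbours in this order overlapped down to G6PC. With unnamed transcripts of the locus added, SLC37A4 was at 11.3, SLC2A2 at 10.3 and FOXO1 at 7.07 FPKM, so that SLC2A2 stood above FOXO1 and PPARGC1A. TAT (0.628 ± 0.160 FPKM) lay below every G6PC value, and PCK1 (0.155 ± 0.124 FPKM) below every TAT value. FBP1 was close to 0 in every group. It was listed at 0 in 28 of the 40 libraries and reached at most 0.0969 FPKM in the other 12. No transcript without a gene name was assembled at the PCK1 or FBP1 locus. The FPKM tables hold no read counts, so no detection limit is given, and an exact 0 can be a failed estimate.

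**Figure D1:**
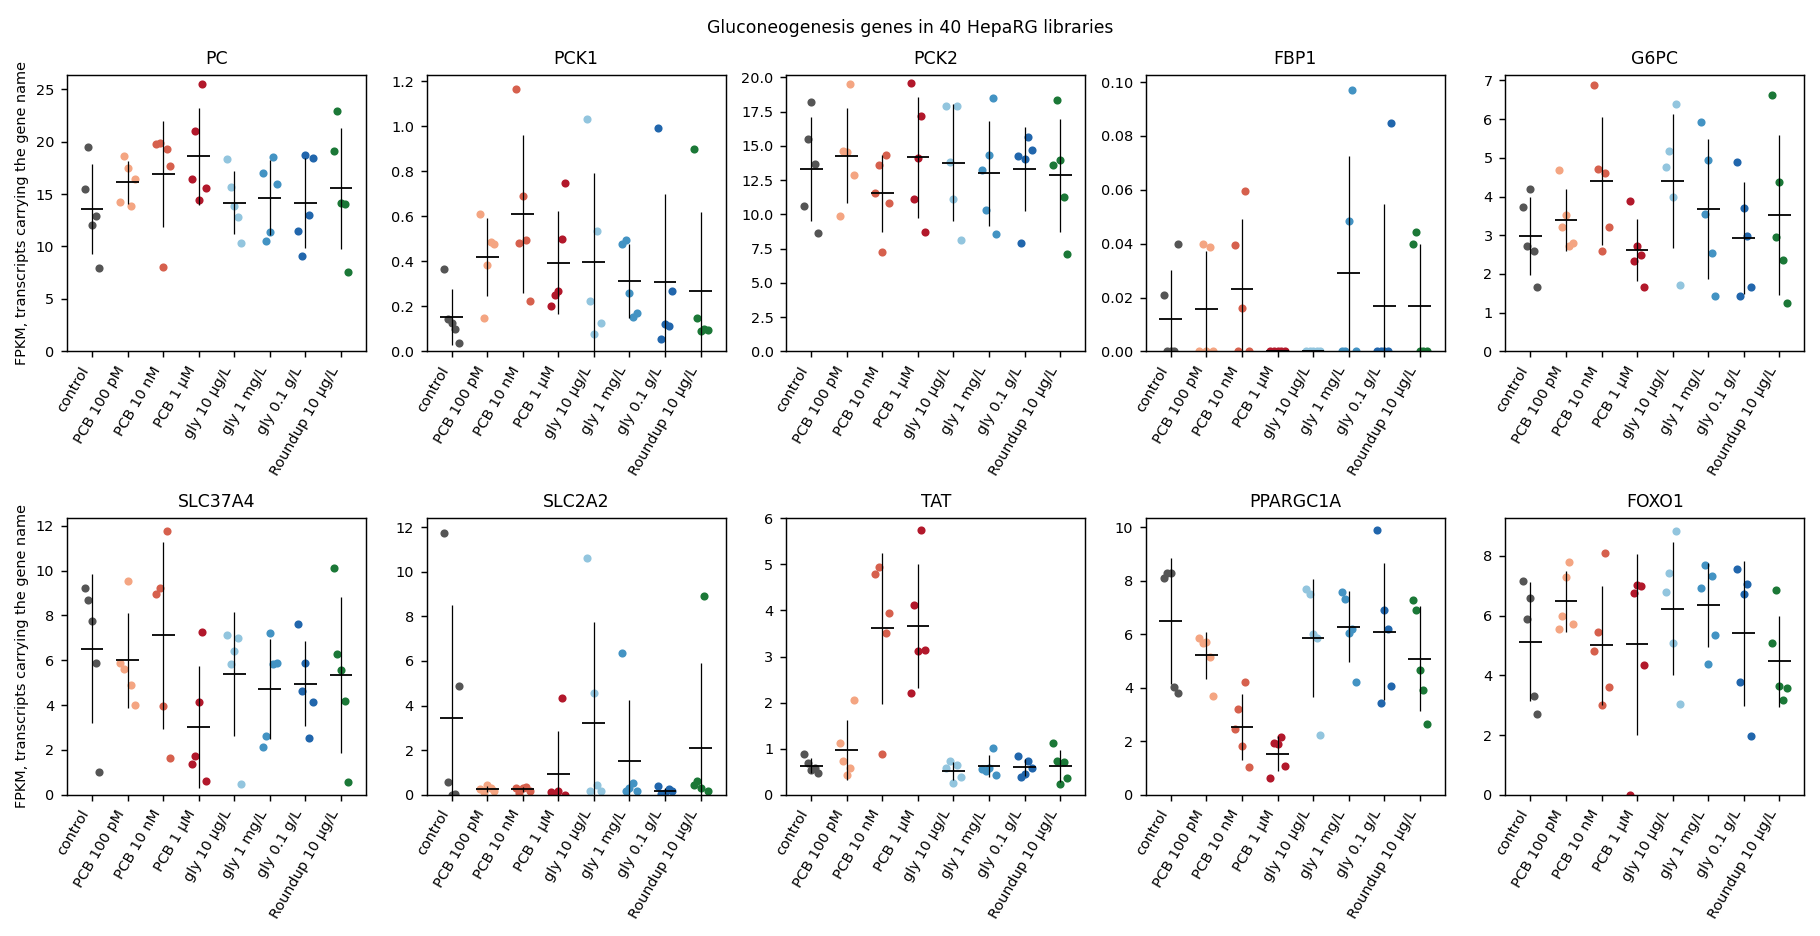
FPKM of the 10 genes in each of the 40 libraries, summed over transcripts that carry the gene name. Points are libraries (5 per group, replicates 1 to 5 from left), horizontal lines are group means and vertical lines are SD. PPARGC1A fell from a mean of 6.50 in control to 1.54 at PCB 126 1 µM and TAT rose from 0.628 to 3.66, while FBP1 did not exceed 0.0969 FPKM in any group.

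The exposure was checked on CYP1A1, the standard target gene of AhR. CYP1A1 had a median of 0.175 FPKM in control (0 to 7.69) and of 36.4, 292 and 234 FPKM at PCB 126 100 pM, 10 nM and 1 µM. At 100 pM it ranged from 1.09 to 319 FPKM and overlapped control, while at the higher doses it did not fall below 85.2. Differences between groups were tested with limma on log2(FPKM + 1) over all genes with a variance of FPKM above 1, with Benjamini-Hochberg adjustment over all genes tested and a threshold of 0.05. Fold changes on this scale understate those of genes with low FPKM. For the PCB 126 groups, 9755 genes were tested, 8 of the members among them. PCK1 and FBP1 varied too little. TAT passed in the PCB 126 table only because some groups were high, since it did not pass in the herbicide table, and its tests below are on a member admitted through the groups tested.

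Across the 4 groups of the PCB 126 table, 2 members were called by limma's F-test, with 1.39% of all genes called. They were PPARGC1A (adjusted p = 0.00488) and TAT (adjusted p = 0.00386). The calls of TAT here and below carry the limit that it entered the fit through its high PCB 126 groups. At 1 µM PPARGC1A fell and TAT rose, where 1.87% of all genes were called, 1.22% lower and 0.646% higher. At 10 nM 1 member was called, TAT, which was higher, with 0.205% of all genes called (0.144% higher, 0.0615% lower). At 100 pM no member was called and 0% of all genes were (0 of 9755 by limma, 116 at an unadjusted p under 0.05, none of these a member). Over dose steps, counted as 0 for control to 3 for 1 µM, the same 2 members were called, where 3.78% of all genes were called (2.86% falling and 0.923% rising).

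PPARGC1A lies on chr4:23755041-23904089 (GRCh38, minus strand). All of the RNA of its locus was on 18 transcripts that carry its name. The control libraries held 8.09, 8.28, 8.28, 4.04 and 3.80 FPKM. At 100 pM the values were 5.85, 5.65, 5.69, 5.16 and 3.68 FPKM, within the control range or just under it. At 10 nM they were 2.45, 3.21, 1.82, 4.22 and 1.03 FPKM, and at 1 µM 0.621, 1.94, 1.90, 2.16 and 1.07 FPKM. Every 1 µM library lay below every control and every 100 pM library, while 1 library at 10 nM overlapped the control range.

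The PPARGC1A level fell by 1.54 ± 0.28 (SE) on the log2 scale at 1 µM (limma, adjusted p = 0.00268). Its mean was 23.7% of the control mean. At 10 nM the difference was -1.09 ± 0.28 (adjusted p = 0.180) and at 100 pM -0.22 ± 0.28 (adjusted p = 1). It fell by 0.55 ± 0.09 per dose step (adjusted p = 0.000361). Between neighbouring doses, where no gene passed (0% of all genes called at 10 nM against 100 pM and 0% at 1 µM against 10 nM, with 558 and 324 genes at an unadjusted p under 0.05), PPARGC1A differed by -0.87 ± 0.28 from 100 pM to 10 nM (adjusted p = 0.675) and by -0.45 ± 0.28 from 10 nM to 1 µM (adjusted p = 1).

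TAT lies on chr16:71565660-71577130 (minus strand), with no unnamed transcripts. It was low in control, at 0.877, 0.682, 0.542, 0.572 and 0.466 FPKM. At 100 pM the values were 1.12, 0.732, 0.420, 0.585 and 2.05 FPKM, and at 10 nM 4.80, 4.94, 0.882, 3.51 and 3.94 FPKM. At 1 µM they were 2.20, 4.11, 3.12, 5.74 and 3.14 FPKM. At 10 nM 4 of the 5 libraries and at 1 µM all 5 stood well above control, and the third library at 10 nM was just above the highest control.

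TAT rose by 1.48 ± 0.29 on the log2 scale at 1 µM (adjusted p = 0.00497) and by 1.40 ± 0.29 at 10 nM (adjusted p = 0.0322). All p-values of TAT in this paragraph, except that without the variance filter, are of a member admitted through its high PCB 126 groups. The mean levels were 583% and 576% of the control mean. The difference between 1 µM and 10 nM was 0.08 ± 0.29 (adjusted p = 1). From 100 pM to 10 nM it was 1.17 ± 0.29 (adjusted p = 0.382). Without the variance filter the 1 µM call remained and the 10 nM call was lost (adjusted p = 0.177). The call at 10 nM was also lost on leaving out any 1 of 9 libraries (adjusted p from 0.0544 to 0.147), and it remained (adjusted p = 0.000504) without the third library at 10 nM. In the fit of loci the 10 nM call held without any 1 of the 10 libraries (limma, adjusted p from 6.6e-05 to 0.0319). TAT has the same values there and only the other features of the fit differ, so this is no second measurement.

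**Figure D2:**
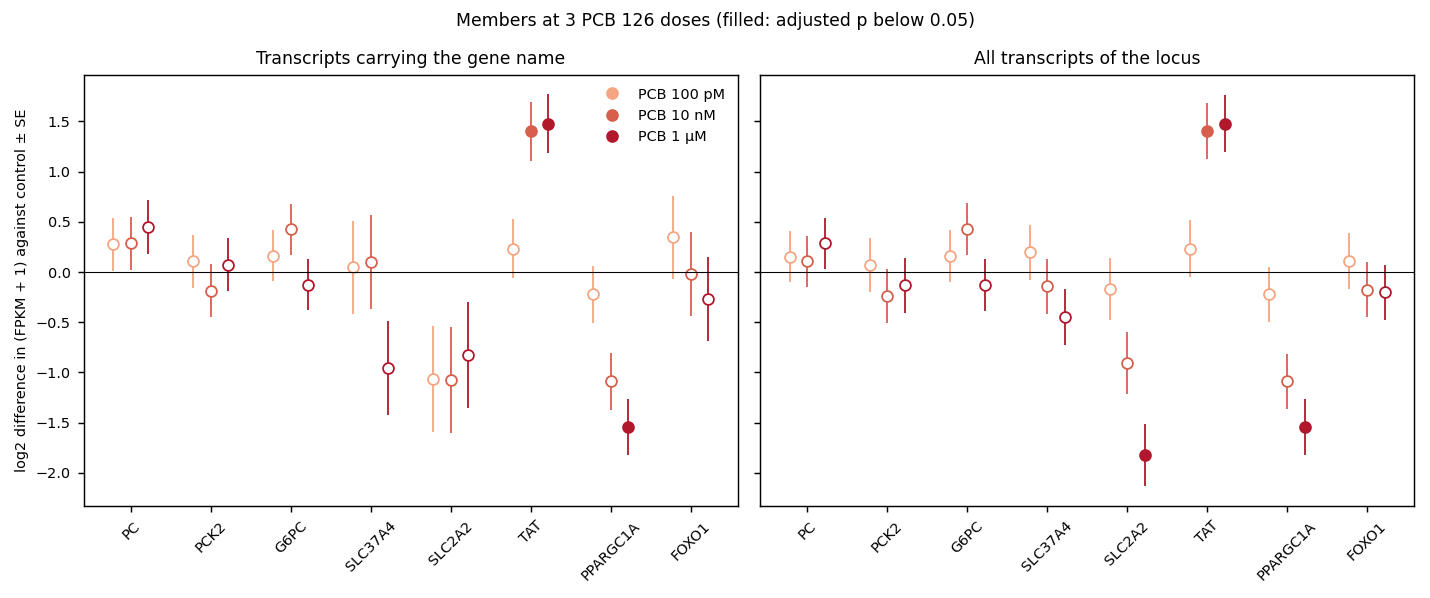
Difference of 8 members from control at the 3 PCB 126 doses, as log2 of (FPKM + 1) with SE from limma, for transcripts that carry the gene name (left) and all transcripts of the locus (right). Filled points passed an adjusted p of 0.05. PPARGC1A and TAT passed at 1 µM on both sides, which hold the same values for them. SLC2A2 passed there only by locus, at -1.83.

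The named FPKM of SLC2A2 did not measure the gene evenly. StringTie had assembled 5 transcripts without a gene name at the SLC2A2 locus (chr3:170996348-171026750, minus strand, for the named ones), and these held 78.8% of its FPKM. An unnamed transcript led the locus in 34 of 40 libraries, a named one in 5 and the small nuclear RNA pseudogene RNU1-70P in 1. The named sum was 11.7, 0.582, 0, 0.0495 and 4.86 FPKM in the 5 controls, and no difference in it was called (-0.83 ± 0.53 at 1 µM, adjusted p = 0.492). The sum over the locus was a choice made after the data were seen. It was 15.6, 9.57, 6.91, 10.2 and 9.09 FPKM in control and 9.11, 7.56, 8.25, 12.2 and 7.31 FPKM at 100 pM. At 10 nM it was 5.28, 5.01, 2.80, 10.1 and 3.22 FPKM, and at 1 µM 0.353, 2.66, 1.99, 5.77 and 1.79 FPKM. By locus no 1 µM library reached the lowest control.

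By locus, 3 members were called at 1 µM, where 4.04% of all loci were called: SLC2A2 fell by 1.83 ± 0.31 on the log2 scale (adjusted p = 8.54e-05), PPARGC1A fell by 1.54 ± 0.27 (adjusted p = 0.000190) and TAT rose by 1.48 ± 0.28 (adjusted p = 0.000442). PPARGC1A and TAT had no unnamed transcripts, so their values were the same as in the named sums. TAT again carries the limit of its entry into the fit. The SLC2A2 locus mean was 24.5% of control, and without RNU1-70P 24.1% (exact permutation test, two-sided, p = 0.00794, the smallest that 5 against 5 libraries allow). At 10 nM, where RNU1-70P led 1 library, it was 51.5% with and 46.6% without the pseudogene. The same 3 loci were called by the F-test, where 3.28% of loci were called, and over dose steps, where 7.26% were. At 10 nM only TAT was called among the members (0.488% of loci called). SLC2A2 differed there by -0.91 ± 0.31 (adjusted p = 0.347) and PPARGC1A by -1.09 ± 0.27 (adjusted p = 0.0529).

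**Figure D3:**
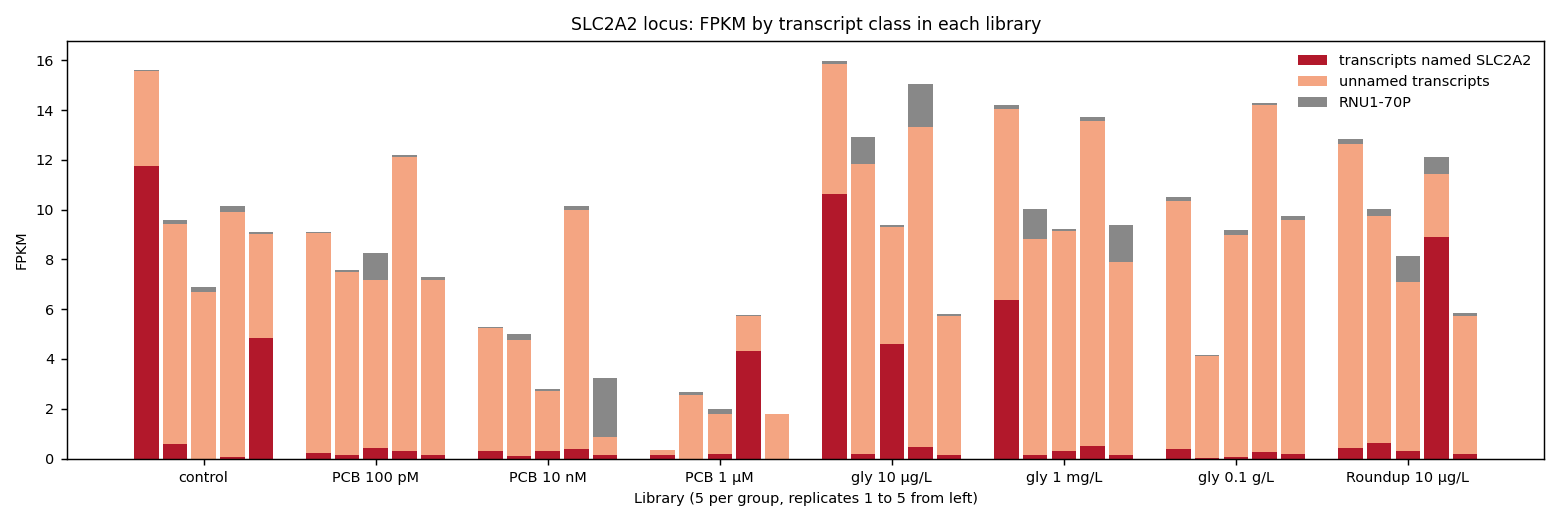
FPKM of the SLC2A2 locus in each library (bars, replicates 1 to 5 of each group from left), split into transcripts named SLC2A2, unnamed transcripts and RNU1-70P. The named share changes from library to library, while the whole bar is below 6 FPKM in every PCB 126 1 µM library and at least 6.91 in every control.

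Markers of hepatocytes, biliary cells and mesenchymal cells were read beside the members. The hepatocyte and biliary sums were lower at 1 µM, while the mesenchymal sum overlapped control. The summed FPKM of 10 hepatocyte markers ranged from 14615 to 21310 in control (median 21153), from 8580 to 22663 at 10 nM and from 5714 to 14521 at 1 µM (median 9837), and its mean at 1 µM was 51.3% of control. At 1 µM 3 of the 10 passed, all lower: TTR, FGB and CPS1. Albumin, the most abundant, had a mean of 5570 FPKM at 1 µM against 11206 in control. The sum of 6 biliary markers was 224 to 452 FPKM in control and 122 to 215 at 1 µM, with none of 3 tested past the threshold. The sum of 7 mesenchymal markers was 38.1 to 85.3 FPKM in control and 48.5 to 187 at 1 µM, 181% of the control mean (154% at 10 nM). The median difference of the 5 tested mesenchymal markers was 0.64 at 1 µM, and the 1 that passed, COL3A1, was lower. Among the defining biliary markers, EPCAM was at or near 0 in control and at 1 µM, and so was the mesenchymal marker COL1A2. TAT moved against the hepatocyte sum. In RNA from whole cultures, fewer cells of a type and less RNA per cell cannot be told apart, and the part of these markers in the lower PPARGC1A and SLC2A2 was not tested.

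**Figure D4:**
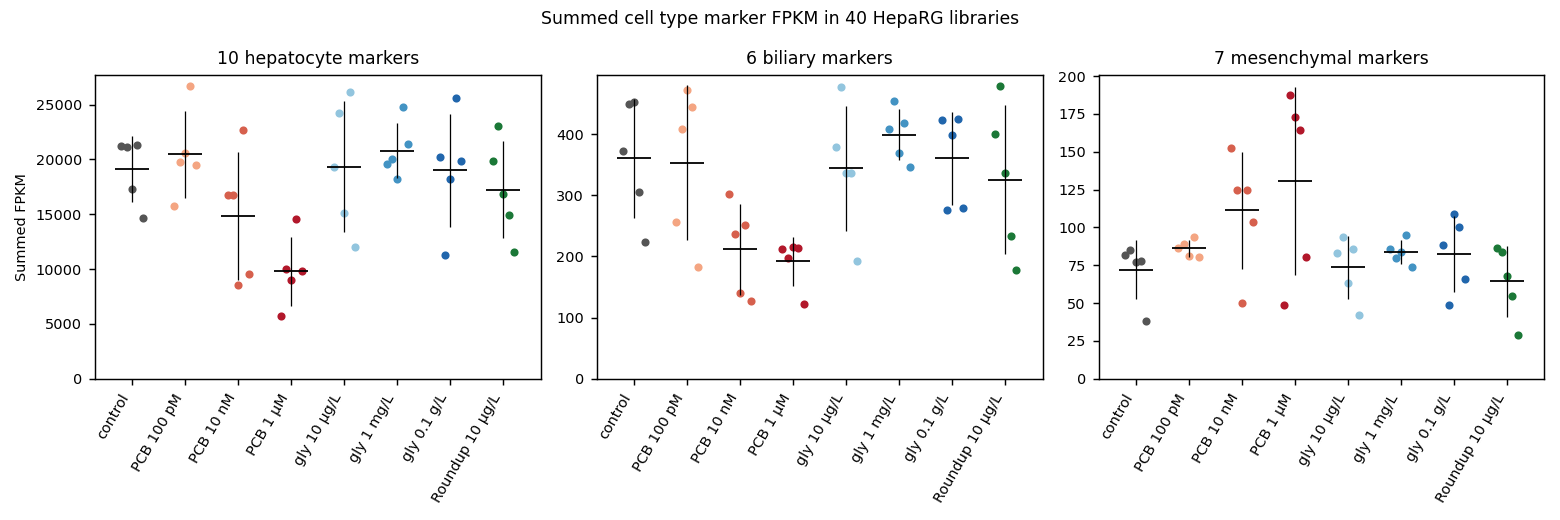
Summed FPKM of 10 hepatocyte, 6 biliary and 7 mesenchymal markers in each library, with group means (horizontal lines) and SD (vertical lines). The hepatocyte sum at PCB 126 1 µM, 5714 to 14521, lies below every control library, whose lowest is 14615.

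The 3 enzyme genes tested in the fits, PC, PCK2 and G6PC, were not called at any dose. PC (chr11:66848233-66958376, minus strand) had 15.5, 19.5, 12.1, 12.9 and 7.97 FPKM in control and 16.4, 21.01, 14.4, 25.5 and 15.6 at 1 µM. Its difference was 0.45 ± 0.27 (95% interval -0.10 to 0.99, adjusted p = 0.463). By locus, where unnamed transcripts held 14.8% of the FPKM, PC differed by 0.29 (exact permutation test, p = 0.167). The call of PC at 1 µM and that of PPARGC1A at 10 nM depended on scaling. The median gene stood 0.26 lower at 1 µM than in control on the log2 scale, 0.12 lower with scaling to the 75th percentile and 0.01 lower after quantile normalization. Under these scalings the named sum of PC was called higher, by 0.61 (adjusted p = 0.0265) and 0.64 (adjusted p = 0.0130). It was also called in an unmoderated linear model with a library-size term (0.65, adjusted p = 0.0457). That term is a library's sum of log2(FPKM + 1) values below their 75th percentile, not a read number. More genes of all kinds were called at 1 µM under these scalings, 571 and 1085 against 182 without scaling. PPARGC1A fell by 1.44 and 1.20 and TAT rose by 1.58 and 1.69 under them, and both stayed called. At 10 nM PPARGC1A was called lower under both scalings (-0.97, adjusted p = 0.0286, and -0.87, adjusted p = 0.00177). Of all genes, 68 and 184 were called there, against 20 without scaling.

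PCK2 (chr14:24094053-24110598, plus strand) had 10.6, 15.5, 18.2, 13.7 and 8.67 FPKM in control and 19.6, 11.1, 14.1, 17.2 and 8.74 at 1 µM. The ranges overlapped, with a difference of 0.07 ± 0.26 (95% interval -0.47 to 0.61). G6PC (chr17:42900797-42913369, plus strand) had 3.74, 2.73, 4.19, 2.59 and 1.65 FPKM in control, 6.87, 4.71, 2.58, 4.61 and 3.22 at 10 nM and 3.88, 2.34, 2.73, 2.50 and 1.65 at 1 µM. Its differences were 0.43 ± 0.25 at 10 nM (adjusted p = 0.865) and -0.13 ± 0.25 at 1 µM (95% interval -0.65 to 0.39). From 10 nM to 1 µM it differed by -0.55 ± 0.25 (adjusted p = 1).

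PCK1 (chr20:57561080-57568112, plus strand) did not exceed 1.17 FPKM in any library. Control held 0.364, 0.144, 0.128, 0.102 and 0.0362 FPKM. The values were 0.609, 0.148, 0.382, 0.488 and 0.477 at 100 pM, 1.17, 0.481, 0.691, 0.495 and 0.226 at 10 nM and 0.204, 0.253, 0.269, 0.498 and 0.747 at 1 µM. All 3 groups overlapped control. PCK1 and FBP1, and TAT in the herbicide groups, were tested outside the fits with two-sided exact permutation tests, 21 in all and unadjusted, of which 2 had a p under 0.05. Both were of PCK1, at 100 pM (difference 0.30 on the log2 scale, exact p = 0.0159) and at 10 nM (0.46, exact p = 0.0159). At 1 µM its difference was 0.26 (exact p = 0.0635). FBP1 (chr9:94603133-94640249, minus strand) was listed at 0 in all 5 libraries at 1 µM and in 3 of 5 controls.

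SLC37A4 (chr11:119024114-119030906, minus strand) had 49.7% of its locus FPKM on unnamed transcripts. The named sum was 9.21, 8.70, 7.75, 5.86 and 1.03 FPKM in control and 1.35, 1.74, 4.15, 7.27 and 0.605 at 1 µM, a difference of -0.96 ± 0.47 (adjusted p = 0.370). By locus it was 14.3, 13.6, 13.9, 9.42 and 5.58 FPKM in control and 5.75, 8.26, 8.32, 9.97 and 6.55 at 1 µM, a difference of -0.45 ± 0.28 (adjusted p = 0.428). FOXO1 (chr13:40469953-40666597, minus strand) had 7.15, 5.89, 6.58, 3.32 and 2.70 FPKM in control and 0, 6.78, 7.03, 7.01 and 4.36 at 1 µM. In the library listed at 0, the locus sum, which also takes in an unnamed transcript and LINC00598, was 2.40 FPKM. FOXO1 differed by -0.27 ± 0.42 at 1 µM (95% interval -1.13 to 0.59).

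A pair of ratios were formed within each library. The log2 ratio of PCK1 to PCK2, with 1 FPKM added to each, was -3.60 ± 0.43 in control and -2.95 ± 0.50 at 10 nM, the largest change among the groups (exact permutation test, p = 0.0794). PCK1 averaged 0.155 FPKM in control, so the added 1 FPKM made up most of its side, and the value is not the ratio of the levels. The log2 ratio of G6PC to SLC37A4 was -0.76 ± 0.68 in control and 0.07 ± 0.93 at 1 µM (exact p = 0.135). None of the 14 comparisons of the ratios with control passed 0.05, with p from 0.0794 to 0.770. Other settings changed this: with a pseudocount of 0.1 the PCK1 to PCK2 ratio at 10 nM differed by 1.66 instead of 0.65 (exact p = 0.0317), and by locus the G6PC to SLC37A4 ratio passed at 10 nM (exact p = 0.0238) and at glyphosate 10 µg/L (exact p = 0.0159).

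Around the members, 5 lists of genes of the pathway were examined at 1 µM, where 1.87% of all genes were called and the median gene differed by -0.26. Of the 12 genes of carbon entry 10 were tested and none passed, with a median of -0.24 and 2 at an unadjusted p under 0.05. Of 3 other isozymes only G6PC3, the ubiquitous glucose 6-phosphatase, was tested, and it differed by -0.09 ± 0.28.

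Of the 14 genes of the hormone and cyclic AMP arm beside TAT, 11 were tested and 1 passed. IGFBP1, a secreted protein that is induced in liver by fasting and repressed by insulin, rose from 27.5 ± 10.5 to 136 ± 73.03 FPKM (2.15 ± 0.50, adjusted p = 0.0202). The kinase genes PDK4 and SIK2 differed by -0.61 ± 0.39 and -0.67 ± 0.26 and did not pass. Of 12 liver transcription factors of the pathway 11 were tested and 2 fell: FOXA1, a pioneer factor of liver genes (7.70 ± 1.75 to 2.88 ± 1.17 FPKM, adjusted p = 0.0213), and NR1H4, the bile acid receptor FXR (8.38 ± 3.75 to 2.99 ± 0.927 FPKM, adjusted p = 0.0348). HNF4A differed by 0.41 ± 0.29 and CEBPA by -0.70 ± 0.27, neither past the threshold.

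Of the 12 genes of opposing glucose use 6 were tested and 2 passed, in opposite directions. SLC2A1, the glucose transporter GLUT1, rose from 9.25 ± 3.93 to 40.98 ± 10.1 FPKM (2.11 ± 0.34, adjusted p = 0.000618). PFKFB3, which makes the allosteric activator of phosphofructokinase, fell from 25.2 ± 6.54 to 8.31 ± 1.58 FPKM (-1.48 ± 0.28, adjusted p = 0.00355). Hexokinase 2 (HK2) differed by 1.27 ± 0.35 (adjusted p = 0.0563) at 1 µM and rose over dose steps by 0.46 ± 0.11 per step (adjusted p = 0.0124). At 10 nM and at 100 pM no gene of these 5 lists passed.

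**Figure D5:**
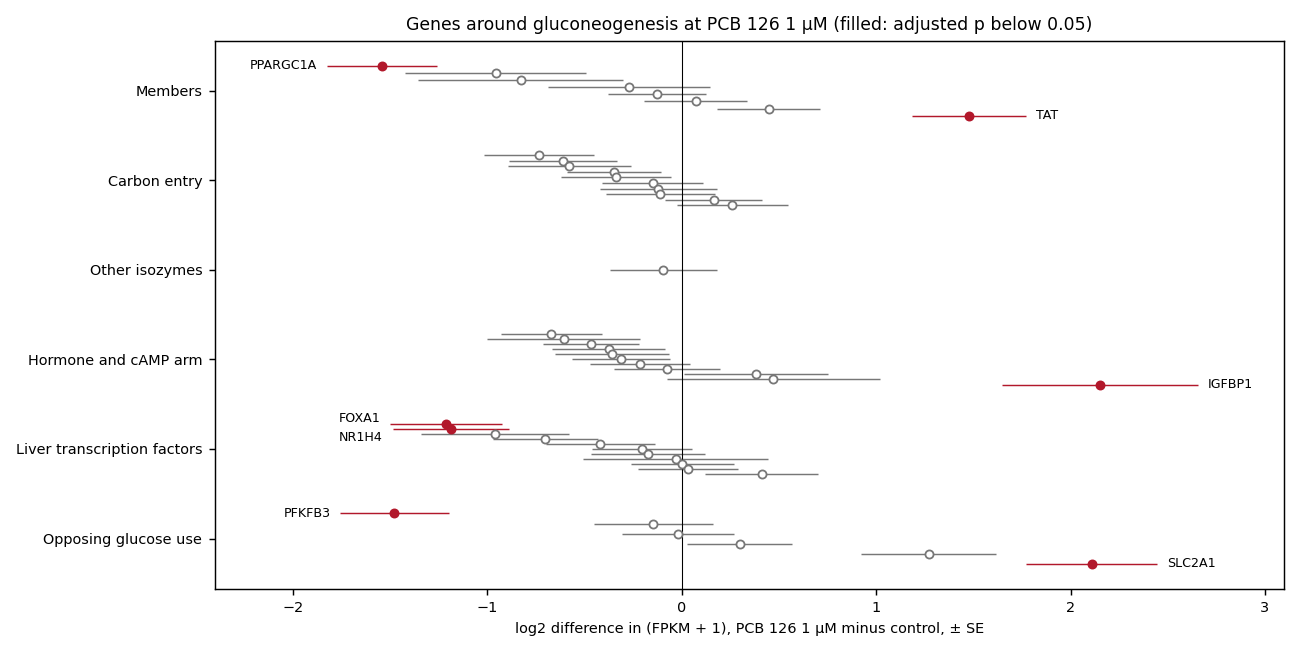
Difference between PCB 126 1 µM and control for the tested members (named sums) and 5 lists of related genes, as log2 of (FPKM + 1) with SE from limma. Filled points passed an adjusted p of 0.05 and are named: PPARGC1A, FOXA1, NR1H4 and PFKFB3 were lower, and TAT, IGFBP1 and SLC2A1 were higher.

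For the herbicide groups, 9533 genes were tested, 7 members among them, and no member was called in any comparison. The F-test over the 5 groups called 0% of all genes (130 at an unadjusted p under 0.05). Each of the 3 glyphosate concentrations and Roundup against control had 0% of all genes called, and so had Roundup against glyphosate at their equal concentration of 10 µg/L. At an unadjusted p under 0.05 there were 95, 125 and 84 genes at the 3 glyphosate concentrations, 165 at Roundup and 121 between Roundup and glyphosate. The unmoderated linear model with the library-size term described above called no member either, and no tested member had an unadjusted p under 0.05 in limma. By locus the F-test called 0.0211% of loci, none of them a member.

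Across the 4 herbicide groups, PC differed from control by 0.06 to 0.15 and PCK2 by -0.06 to 0.03 on the log2 scale. The 95% intervals of both stayed within -0.61 to 0.71. PPARGC1A differed by -0.30 to 0.00 (intervals from -0.91 to 0.61), G6PC by -0.06 to 0.41 (intervals from -0.74 to 1.08) and FOXO1 by -0.14 to 0.31. The named sum of SLC2A2 had the widest intervals, from -2.55 to 1.40, while its locus sum differed by -0.13 to 0.16. TAT stayed between 0.237 and 1.12 FPKM in the 20 herbicide libraries (exact permutation p from 0.357 to 0.913). Between Roundup and glyphosate at 10 µg/L the differences of the 7 members in the fit ranged from -0.38 for FOXO1 and SLC2A2 to 0.07 for PC.

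To leave the shared controls out, PCB 126 at 1 µM was also set against the 20 herbicide libraries in a fit of all 40, an addition made after the data were seen. Of all genes 9.37% were called there. PPARGC1A, with 2.21 to 9.88 FPKM in the herbicide libraries, was lower at 1 µM (-1.41 ± 0.23 on the log2 scale, adjusted p = 2.55e-05). TAT differed by 1.52 ± 0.19. No p is given for it, since it passed the filter of this fit through its high PCB 126 groups. By locus, where 12% of loci were called, SLC2A2 differed by -1.85 ± 0.24 (adjusted p = 6.04e-08). The other members tested were not called.

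By the mapping summary of the study, 9 libraries held many multiply aligned read pairs, taken here as more than 30%. This limit was set for the re-analysis and is not the study's. They are replicate 5 of control, replicates 3 and 5 of PCB 126 10 nM, replicates 1 and 5 of 1 µM, replicate 5 of glyphosate 10 µg/L, replicate 2 of glyphosate 0.1 g/L, and replicates 4 and 5 of Roundup. The summary does not name 2 of the 40 libraries, which could not be judged. The fifth library of a group was the lowest of its group in 6 of 8 groups for PPARGC1A and for SLC37A4 (locus sums), and in 5 of 8 for PCK2, G6PC and FOXO1. Without the 9 libraries PPARGC1A fell by 1.40 ± 0.22 (adjusted p = 0.00180) and TAT rose by 1.65 ± 0.24 (adjusted p = 0.000924) at 1 µM, and the SLC2A2 locus differed by -1.41 ± 0.29 (adjusted p = 0.00510). The limit on TAT, that it entered the fit through its high PCB 126 groups, holds here too.

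By Spearman correlation over the 40 libraries, the 5 genes most like PCK1 were GDF15 (rho 0.705), IER3 (0.705), ETS2 (0.669), TRIM15 (0.669) and GPX2 (0.665). Those most like G6PC were RPL21P75 (0.729), ANGPT1 (0.713), YRDC (0.704), CHST1 (0.689) and AC087190.1 (0.689). They were taken from 12648 genes with a mean of at least 1 FPKM. The libraries share groups, controls and differences in library composition, so these values are a description.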

How the data were processed

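RNA-seq of 40 HepaRG libraries was analysed. The authors depleted ribosomal RNA, made directional libraries and sequenced pairs on a NextSeq500. They aligned with HISAT2 to GRCh38, assembled transcripts with StringTie and exported FPKM per transcript with Ballgown (versions not given in the sources used here). The deposited values are FPKM, and the columns that hold a few values just below 0 were handled as a score and those values (4 in the PCB 126 table, 6 in the herbicide table) set to 0. The tables hold no read counts, and the read numbers that the study gives are not used here. Total FPKM per library ranged from 255292 to 513059. FPKM were summed per gene name, or per StringTie locus where stated. Unnamed transcripts made up 35782 of 234960. limma 3.58.1 (R 4.3.3) was fitted per table, 20 and 25 libraries, on log2(FPKM + 1) for genes with a variance above 1, without covariates, as in the linear model of the study. The fit was tested on simulated data. Genes outside the fits, and the ratios, had exact permutation tests over 252 splits (Python 3.11.15, numpy 2.4.6, pandas 2.3.3, scipy 1.17.1; plots with matplotlib 3.10.9). Named genes were all members, list genes past the threshold (at most 8 per comparison), CYP1A1 and the 5 genes most alike to PCK1 and G6PC. SIK2, PDK4, HNF4A, CEBPA, HK2, G6PC3 and the cell type markers were named after their values were seen. The gene lists covered 5 parts of glucose metabolism (a list of enzymes shared with glycolysis is not reported here), AhR targets and hepatocyte, biliary and mesenchymal markers. The members and lists were chosen with earlier results of these data known. The alternatives were pseudocount, filter, scaling, library and replicate choices, the model and the transcript sum.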

Additional observations from a re-analysis of the deposited data

Results flagged for a closer look

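In 10 of 80 groups of 5 libraries (10 genes in 8 groups), the highest or lowest FPKM stood apart from the other 4 by Dixon's 95% criterion. Chance meets it in about 1 of 20 groups of independent, normally distributed values. The 80 groups come from the same 40 libraries, so they are not independent. In the flagged FBP1 group the other 4 libraries were listed at 0, so any value above 0 would be flagged. Low values were those of PC in the third library at PCB 126 10 nM (8.07), PCK2 in the second at glyphosate 0.1 g/L (7.90) and SLC37A4 in the fifth at glyphosate 10 µg/L (0.497). These 3 libraries are among those with many multiply aligned read pairs. High values were those of PCK1 in the first library at glyphosate 0.1 g/L (0.991) and at Roundup (0.900), FBP1 in the fifth at glyphosate 0.1 g/L (0.0848) and TAT in the fourth at glyphosate 1 mg/L (1.02). The named sum of SLC2A2 was high in the fourth library at PCB 126 1 µM (4.34), the first at glyphosate 1 mg/L (6.38) and the fourth at Roundup (8.89). Its locus sums in these libraries were 5.77, 14.2 and 12.1 FPKM.

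The response to PCB 126 1 µM differed from that to the herbicides in 2 members by a limma fit of the difference: PPARGC1A (-1.41) and TAT (1.52). In that fit 9.37% of all genes were called. TAT entered this fit through its high PCB 126 groups.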

How the results depend on the processing

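No member was called in a herbicide comparison or at PCB 126 100 pM under any alternative, while 1 other gene was called at glyphosate 0.1 g/L under 75th-percentile scaling and under quantile normalization. PPARGC1A (-2.04 to -1.20 at 1 µM) and TAT (1.33 to 2.33) kept their calls in all 24 alternatives at 1 µM and all 32 over steps, and the counts of 2 members at 1 µM, over steps and by F-test did not change on leaving out any 1 library. By F-test 0 members were called with the most abundant transcript. At 10 nM the count of 1 became 0 without a filter, with a mean-variance trend, with the most abundant transcript and without the 5th libraries (chosen after seeing the data), 2 under 75th-percentile scaling, quantile normalization and the library-size term, and 0 to 1 on leaving out 1 library. All genes called at 10 nM numbered 20 in the main fit, 68 under 75th-percentile scaling and 184 under quantile normalization. For the other alternatives the share of all genes is not given here. Of all genes, 63 were called higher and 119 lower at 1 µM. Scaling to the 75th percentile gave 246 and 325, and quantile normalization 532 and 553. Over dose steps these were 90 and 279, 253 and 527, and 599 and 643. The ratio of PCK1 to PCK2 at 10 nM passed with a pseudocount of 0.1 (1.66, exact p = 0.0317). The ratio of G6PC to SLC37A4 passed by locus at 10 nM (0.57, exact p = 0.0238) and glyphosate 10 µg/L (0.40, exact p = 0.0159), and there also without libraries with many multiply aligned pairs (0.71, exact p = 0.0286). Leaving out 1 library gave ratio differences from 0.58 to 1.16 at 1 µM, 0.43 to 0.95 at glyphosate 10 µg/L and 0.17 to 0.68 at Roundup. The highest of each passed, without replicate 4 of 1 µM (exact p = 0.0476) and without control replicate 5 (exact p = 0.0159 and 0.0397). The causes were not tested. A member's sign was compared only where the value exceeded its SE or was called. Equal replicate numbers mark runs of consecutive library numbers, whose meaning the labels do not give. Deviations from the group means correlated by -0.17 to 0.36 (median 0.05) between libraries of equal replicate number. Between libraries of unequal number they correlated by -0.27 to 0.21 (median -0.02). Of 40 libraries, 25 correlated best with their own number, a hint from the data and not from the design. With the replicate block PPARGC1A fell by 1.54 ± 0.24 (limma, adjusted p = 0.000912) and TAT rose by 1.48 ± 0.27 (adjusted p = 0.00349) at 1 µM. At 10 nM TAT rose by 1.40 ± 0.27 (limma, adjusted p = 0.0219) and PPARGC1A differed by -1.09 ± 0.24 (adjusted p = 0.0656). Without read counts in the tables, no detection limit can be set for PCK1 and FBP1.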
